A study of Mus musculus with 6 samples.

Results

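Translation initiation factors and their regulators were compared between the blood of food-restricted and control mice. The genes were taken as every gene on the array whose symbol begins with Eif and a factor number from 1 to 6, after each probe's accession had been matched to a RefSeq symbol. The rule takes in the eIF4E-binding proteins (Eif4ebp) and the eIF2 kinases (Eif2ak), and it used no measured value. It found 97 probes for 52 genes, of 16535 genes named on the array, and 43 of the 52 were bright enough to be tested. Both groups were male C57BL/6J mice, an inbred strain, 9 weeks old, with 8 animals per diet. One group had the normal diet (control) and the other 50% food restriction (FR) of the same chow for 2 weeks. Blood was drawn from the right ventricle of the heart and its total RNA was pooled within each diet, with animals 1 to 4 in pool 2, animals 5 to 8 in pool 3 and all 8 in pool 1. The FR and control RNA of a pool were hybridised together on 2 dye-swapped Agilent arrays, 6 arrays in all. Because animals were pooled, the spread between single mice was not measured.

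The test uses pools 2 and 3, which have no mouse in common. Its p-values weigh a ratio only against the spread between these 2 pools that is shared across genes of like signal. In the reported fit, a gene's own spread between the pools does not enter its p-value. Pool 1, hybridised on a separate slide, repeats the measurement in mice of both pools and stays outside the test. Values are log2 ratios of FR over control, relative to a loess centre that sets the bulk of the probes of each array to 0. A gene was called at an adjusted p under 0.05 (limma, Benjamini-Hochberg over 11499 features). A gene could be tested where the signal of at least one diet stood well above background on each of the 4 arrays of these pools. Between 36.7% and 61.6% of probes per array were above background for control RNA and between 20.0% and 55.0% for FR RNA, with no saturated spot. In whole blood, fewer cells of a type and less RNA per cell cannot be told apart.

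Initiation brings a ribosome to the start codon of an mRNA. eIF2 carries the initiator tRNA and is recharged by the exchange factor eIF2B, and kinases that phosphorylate eIF2 in stress block that recharging. eIF3, a complex of many subunits, binds the small ribosomal subunit. The eIF4F complex recruits it to the mRNA: eIF4E binds the cap, eIF4G is the scaffold and eIF4A is the helicase, helped by eIF4B and eIF4H. The 4E-BPs compete with eIF4G for eIF4E until the nutrient-sensing kinase mTORC1 phosphorylates them, and in whole blood much RNA comes from reticulocytes, which still translate globin.

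Of the 43 genes tested, 17 (39.5%) were called lower in FR blood and 2 (4.65%) higher, and 24 were not called. Over all 11499 features, 24.5% were called lower and 3.76% higher. Of the 17, 5 had FR signals above background on fewer than 4 arrays, so the size of their fall is only a bound. With both diets required above background, 12 of 35 Eif genes were lower and 2 higher. Of the 7071 features then tested, 18.6% were lower and 6.17% higher. The median ratio of the 43 genes was -0.30, against 0.01 over all features. By pool it was -0.31, -0.33 and -0.19 in pools 1, 2 and 3, against -0.02, 0.01 and -0.03 over all features. Called in either direction were 44.2% of the Eif genes and 28.3% of all features. By factor number, the genes that fell were 2 of 4 tested for eIF1, 2 of 9 for eIF2 with its exchange factor and kinases, 7 of 12 for eIF3, 6 of 13 for eIF4 and none of the 5 for eIF5 and eIF6.

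At least 2-fold lower were 9 of the 43 genes (20.9%), against 5.82% of all features called lower by that size. No Eif gene was 2-fold higher, against 0.496% of all features. The FR signals of all 3 pools lay below all 3 control signals for 19 genes (26.0% of all features) and above them for 2 genes (5.45%). The ratio was lower in pool 2 than in pool 3 for 39 genes (90.7%), against 53.9% of all features. Both pools were below 0 for 27 genes (62.8%, against 40.3% of all features) and both above for 5 (11.6%, against 35.8%), and 11 had opposite signs. The 19 called genes had the same sign in pool 1 as in the test, as had 99.9% of all called features.

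**Figure D1:**
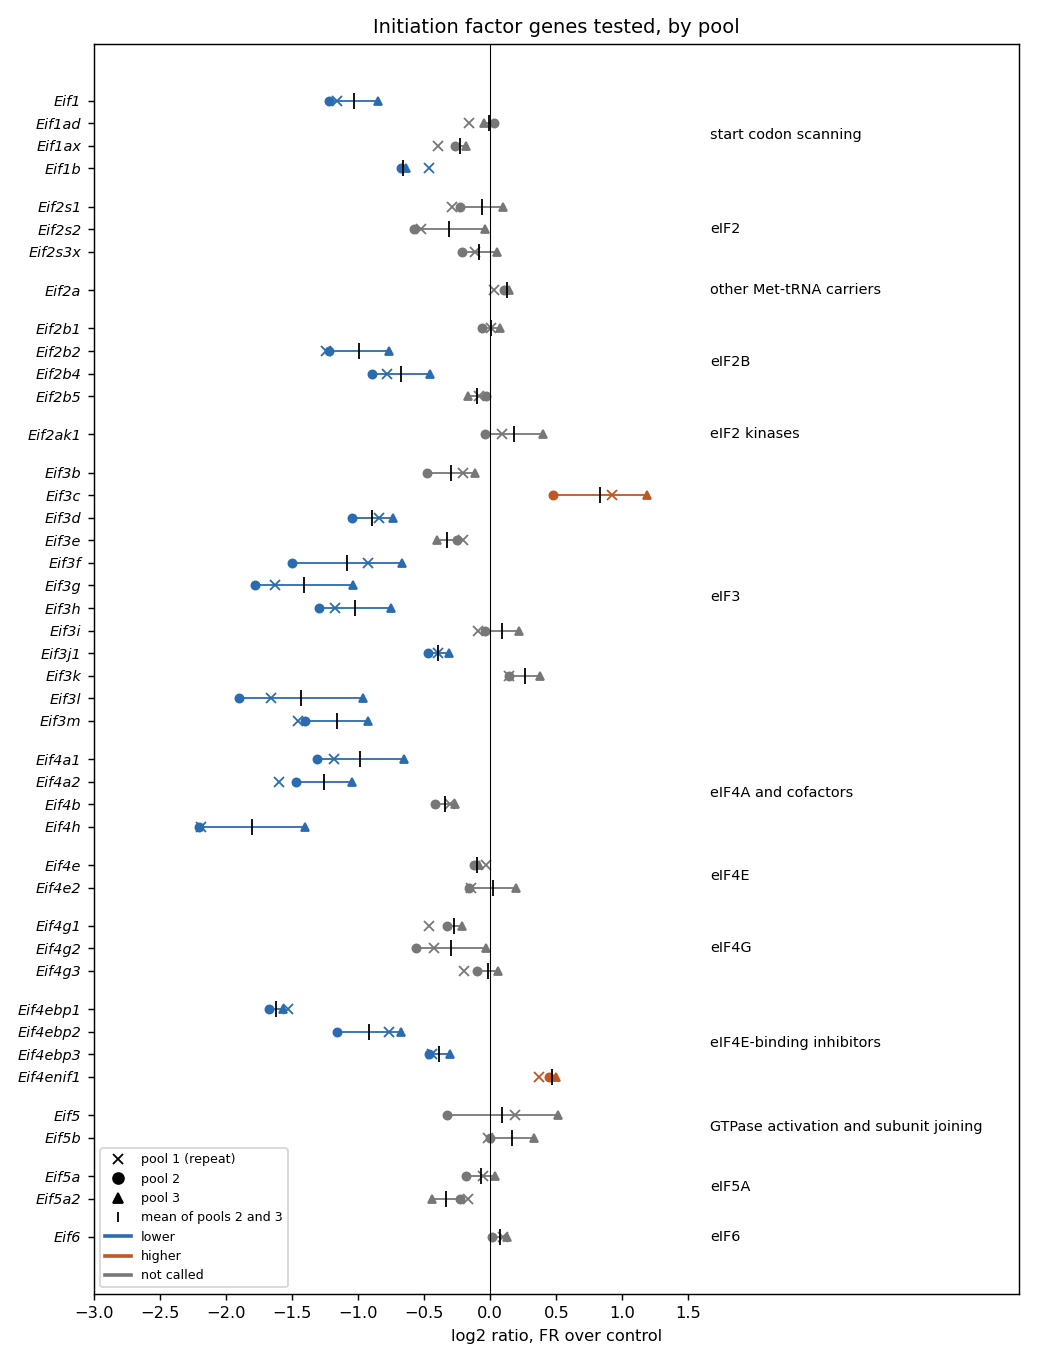
Log2 ratio of FR over control for each of the 43 tested genes (rows, grouped by role), in pool 1 (cross), pool 2 (circle) and pool 3 (triangle), with the mean of pools 2 and 3 as a black bar and the call as colour. The lowest means are those of Eif4h at -1.80 and Eif4ebp1 at -1.63, and no row of eIF2, eIF4E, eIF4G, eIF5, eIF5A or eIF6 is called.

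The test rests on 2 pools and borrows the spread of all genes. The fit estimated no spread of spreads between genes, which makes adjusted p-values very small. The SD printed beside such a p-value therefore has no weight in it. Eif3l, with an SD of 0.66, and Eif1ad, with 0.05, had fitted standard errors of 0.16 and 0.15. When the prior degrees of freedom were set to 5.32, as estimated from 3 pools, 15 of the 17 lower genes and both higher ones were still called (15.3% and 1.50% of all features). That estimate counts pool 1 as a separate pool, though its mice are those of pools 2 and 3. With FR and control signals compared without the pairing on the array, 11 of the 17 (25.6% of the genes tested) and 1 of the 2 were called, against 8.56% and 1.01% of all features. The genes lost without that block were Eif1b, Eif2b4, Eif3d, Eif3j1, Eif4ebp2, Eif4ebp3 and Eif4enif1.

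Promoter sequence was looked at because so many of these genes moved one way. RefSeq (GRCm38.p6) gave a stretch from 250 bases before to 50 bases after the annotated start for 43 of the 52 genes, 36 of them tested. The letters CACGTG, the E-box bound by MYC, USF and TFEB family factors, read the same on both strands and occurred in 10 of the 43 (23.26%), against 8.09% of the 27025 genes with such a stretch. Among tested genes they occurred in 9 of 36 Eif genes (25.0%), against 10.94% of 6373 named genes. The match was found in 4 of the 14 lower genes with a promoter, in 5 of the 20 that were not called and in neither of the 2 higher ones. The 30 bases around it are shown for the 4 lower genes and then for 3 uncalled genes, to show that the same letters stand before genes that moved and genes that did not pass the test. Capitals mark CACGTG and each sequence is written in the direction of its gene.
Eif4h, chr5:134639488-134639517, minus strand: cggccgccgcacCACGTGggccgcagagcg
Eif3f, chr7:108934335-108934364, plus strand: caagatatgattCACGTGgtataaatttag
Eif4a1, chr11:69672595-69672624, minus strand: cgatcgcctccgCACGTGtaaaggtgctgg
Eif1b, chr9:120492570-120492599, plus strand: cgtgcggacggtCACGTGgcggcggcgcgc
Eif4e, chr3:138527192-138527221, plus strand: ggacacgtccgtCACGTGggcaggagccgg
Eif4g1, chr16:20672661-20672690, plus strand: ggcagtgggtgtCACGTGatggggcggagc
Eif3k, chr7:28981915-28981944, minus strand: ctggaaggaaatCACGTGgtagacaaaaaa

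The match began at position -96 from the start in Eif4h, -68 in Eif3f, -189 in Eif4a1 and -24 in Eif1b. In the uncalled genes it began at -64 in Eif4e, -54 in Eif4g1 and -44 in Eif3k. A further match stood at -228 in Eif4e and at 16, after the start, in Eif4g1. The ETS letters CCGGAAGT, searched on both strands, occurred in 8 of the 43 promoters (18.6%), against 4.31% of all genes. Among tested genes they occurred in 8 of 36 Eif genes (22.22%), against 8.00% of the named genes. The amino acid response letters TGATGNAA, also on both strands, occurred in 1 (2.33%), against 4.51%. A start of C followed by 4 pyrimidines, read on the gene's strand and typical of mRNAs that mTORC1 controls, occurred in 2 (4.65%), against 3.01%. These matches are letters in a window and no binding was measured here.

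The genes numbered Eif1 include scanning factors that hold the ribosome open while it searches for the start codon. Of the 4 tested 2 fell, against 24.5% of all features. Eif1 had control signals (log2) of 14.95, 15.07 and 14.86 in pools 1, 2 and 3 and FR signals of 13.79, 13.85 and 14.02. The FR signals lay below the control signals in all 3 pools, and the ratio was -1.03 ± 0.26 (SD, n = 2 pools; limma adjusted p = 1.3e-07). Its near relative Eif1b had control signals of 8.54, 8.68 and 8.52 and FR signals of 8.08, 8.00 and 7.87, again with no overlap. The Eif1b ratio was -0.66 ± 0.03 (SD, n = 2; limma adjusted p = 0.00013). Eif1ax, the X-linked eIF1A that works beside eIF1, was at -0.23 and was not called. Eif1ad, placed here by its symbol alone, was the highest of the group and was not called. It was at -0.16, 0.03 and -0.04 in pools 1, 2 and 3. Eif1a was not above background on all 4 arrays in either diet.

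The subunits of eIF2 itself did not pass the test. Eif2s1, the alpha subunit whose phosphorylation stops initiation, had ratios of -0.29, -0.23 and 0.10 in pools 1, 2 and 3, which straddle 0. Eif2s2, the beta subunit, was at -0.31 and Eif2s3x, the X-linked gamma subunit, at -0.08. The 95% intervals of these ratios (unadjusted) ran from -0.31 to 0.18 for Eif2s1 and from -0.61 to -0.005 for Eif2s2. That of Eif2s3x ran from -0.37 to 0.21. These intervals use the spread shared across genes and not the gene's own SD, which was 0.38 for Eif2s2. Eif2a, which encodes an alternative carrier of the initiator tRNA and not the alpha subunit, was at 0.12. Eif2s3y and Eif2d were not measured above background on all 4 arrays.

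The exchange factor eIF2B, which recharges eIF2 with GTP, was split. Eif2b2, the beta subunit, had control signals of 7.69, 8.20 and 7.79 and FR signals of 6.45, 6.98 and 7.02. The groups did not overlap and the ratio was -0.99 ± 0.32 (SD, n = 2; limma adjusted p = 2.6e-09). It was the lowest of all genes numbered Eif2, and its FR signal was above background on 3 of 4 arrays. Eif2b4, the delta subunit, had ratios of -0.78, -0.89 and -0.46 in pools 1, 2 and 3 and a mean of -0.67 ± 0.31 (SD, n = 2; limma adjusted p = 4.3e-06). Its FR signal was above background on 1 of 4 arrays, and its second probe was at 0.04, so the fall of Eif2b4 rests on 1 probe of 2. Eif2b1, the alpha subunit, was at 0.00 and Eif2b5, the catalytic epsilon subunit, at -0.10, and neither was called.

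Of the 4 kinases that phosphorylate eIF2, only Eif2ak1 could be tested. This gene encodes HRI, which responds to a lack of heme in red cell precursors. Its control signals were 7.42, 7.41 and 7.07 and its FR signals 7.51, 7.36 and 7.47, which overlap. The ratios were 0.09, -0.04 and 0.40 in pools 1, 2 and 3, with a mean of 0.18 ± 0.31 (SD, n = 2; limma adjusted p = 0.44), the highest of the genes numbered Eif2. Its second probe stood at 0.40 and 0.34 in pools 2 and 3 and, with every probe as its own feature, was called higher (limma adjusted p = 0.044). By that rule 25.5% of the 13259 probes were called lower and 4.00% higher. Eif2ak2 (PKR, a sensor of double-stranded RNA), Eif2ak3 (PERK, of the endoplasmic reticulum) and Eif2ak4 (GCN2, which senses uncharged tRNA) were above background on 2, 2 and 3 of 4 control arrays. In FR blood they were above background on 1, 0 and 1 of the 4 arrays, so a difference in these kinases was not measurable here.

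In eIF3, 7 of 12 tested subunits fell and 1 rose, against 24.5% and 3.76% of all features. The median ratio over the 12 was -0.64, against 0.01 over all features. Eif3l had control signals of 8.57, 9.18 and 8.39 in pools 1, 2 and 3 and FR signals of 6.91, 7.28 and 7.43. The FR signals were lower in every pool, least so in pool 3, and the ratio was -1.43 ± 0.66 (SD, n = 2; limma adjusted p = 2.5e-18). On single arrays, with FR in Cy5 first, the Eif3l ratio was -1.81 and -1.51 in pool 1, -1.94 and -1.86 in pool 2, and -1.01 and -0.91 in pool 3. Eif3g, an RNA-binding subunit that takes part in scanning, had control signals of 8.71, 9.38 and 8.70 and FR signals of 7.09, 7.60 and 7.66. These did not overlap either, and the Eif3g ratio was -1.41 ± 0.53 (SD, n = 2; limma adjusted p = 1.9e-18). On single arrays, in the same order, Eif3g was at -1.74, -1.52, -1.82, -1.75, -1.22 and -0.86.

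The next 4 subunits lay close together. Eif3m was at -1.46, -1.40 and -0.93 in pools 1, 2 and 3, and its FR signal was above background on 3 of 4 arrays. Eif3f, one of the subunits of the complex with an MPN domain, was at -0.93, -1.50 and -0.67. Eif3h, the other MPN subunit, was at -1.17, -1.29 and -0.75. For all of these the signals of the diets did not overlap over the 3 pools. The means were -1.16 ± 0.34 for Eif3m, -1.08 ± 0.59 for Eif3f and -1.02 ± 0.38 for Eif3h (SD, n = 2; limma adjusted p = 2.7e-12, 1.8e-11 and 4.6e-11). Eif3d, a subunit that can itself bind the cap of some mRNAs, was at -0.85, -1.05 and -0.74, with a mean of -0.89 ± 0.22 (SD, n = 2; limma adjusted p = 1.5e-07).

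Eif3j1, a loosely bound subunit, was the weakest call among the lower ones. Its control signals of 7.31, 8.21 and 7.72 overlapped its FR signals of 6.91, 7.74 and 7.41. The ratio was nevertheless negative in each pool, at -0.40, -0.47 and -0.31, with a mean of -0.39 ± 0.11 (SD, n = 2; limma adjusted p = 0.046). The call was lost under 7 of 18 other settings. Its second probe was lower still, at -0.75. The mouse genome holds near-identical copies of some of these genes (Eif3j1 and Eif3j2, for example), and probe sequences were not used here, so which copy a probe measures is uncertain.

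Eif3c, a core subunit, went the other way. Its control signals were 9.41, 9.93 and 9.40 in pools 1, 2 and 3 and its FR signals 10.33, 10.40 and 10.59. The FR signals were higher in every pool without overlap, and the ratio was 0.83 ± 0.50 (SD, n = 2; limma adjusted p = 1.2e-07), a rise of 1.78-fold. On single arrays the ratio was 0.81 and 1.03 in pool 1, 0.39 and 0.56 in pool 2, and 1.15 and 1.22 in pool 3. With every probe as its own feature, all 4 Eif3c probes were called higher, with means of 0.83, 0.74, 1.06 and 0.61. Eif3c had the highest ratio of all 43 genes.

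The other eIF3 subunits were not called: Eif3b was at -0.30, Eif3e at -0.33, Eif3i at 0.09 and Eif3k at 0.26. Eif3b signals did not overlap between diets over the 3 pools, but the difference was small against its error (limma adjusted p = 0.13). Eif3e, by contrast, depended on the probe. The brighter probe gave -0.25 and -0.40 in pools 2 and 3 and the dimmer one -1.64 and -1.08. With every probe as its own feature the dimmer Eif3e probe was called lower, at -1.36 ± 0.40 (SD, n = 2), and the mean of both probes was -0.84. Eif3a, the largest subunit, was above background on 3 of 4 control and 2 of 4 FR arrays and was not tested.

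**Figure D2:**
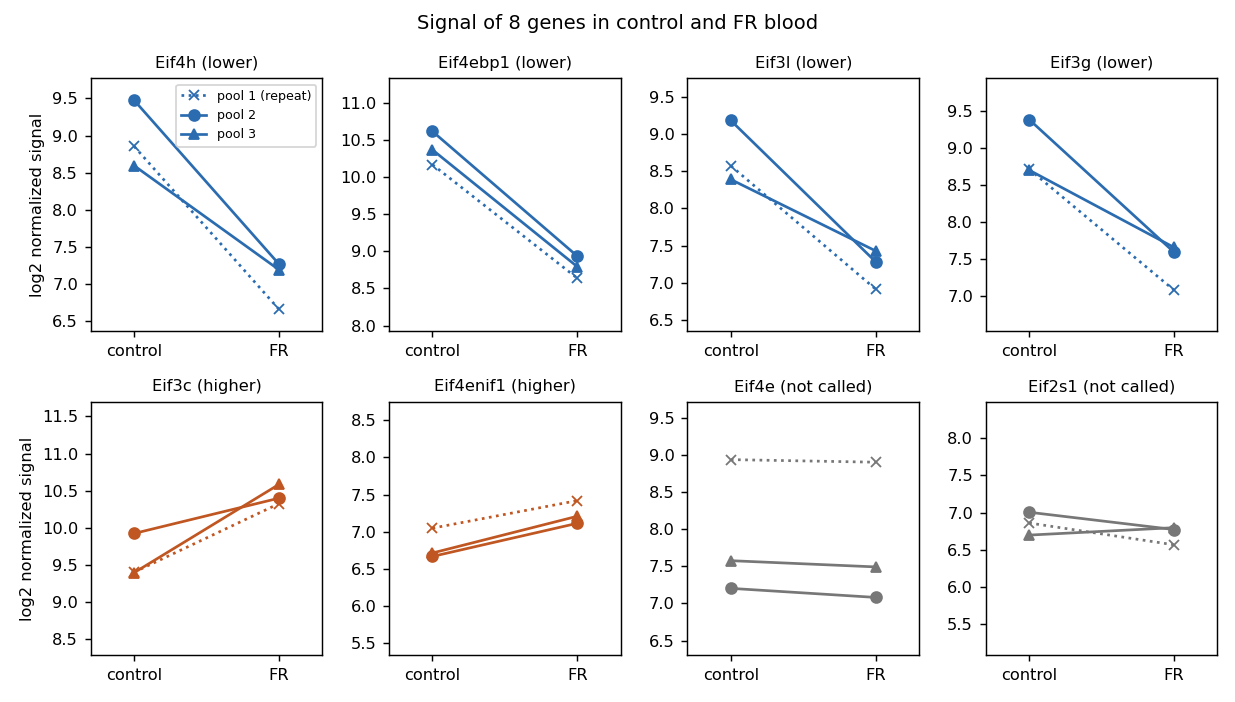
Log2 normalized signal in control and FR blood for 8 genes, with 1 line per pool (pool 1, the repeat, dotted) and the same span on every vertical axis. The lines of Eif4h, Eif4ebp1, Eif3l and Eif3g fall in each pool, those of Eif3c and Eif4enif1 rise in each pool, and those of Eif4e and Eif2s1 are near level.

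The helicase branch of eIF4F had the lowest median of any role, -1.12 over 4 tested genes. Of these 3 fell, against 24.5% of all features. Eif4h, an RNA-binding cofactor that stimulates the helicase eIF4A, had control signals of 8.85, 9.47 and 8.59 in pools 1, 2 and 3 and FR signals of 6.66, 7.27 and 7.19. Every FR signal was far below every control signal. The Eif4h ratio was -1.80 ± 0.57 (SD, n = 2; limma adjusted p = 8.0e-29), a 3.49-fold reduction and the lowest of the 43 genes. On single arrays it was -2.30 and -2.08 in pool 1, -2.40 and -2.01 in pool 2, and -1.81 and -0.99 in pool 3.

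Both helicase genes fell as well. Eif4a2 had control signals of 8.14, 8.59 and 8.00 and FR signals of 6.53, 7.11 and 6.95. Eif4a1, its close paralog, had control signals of 8.14, 8.73 and 8.14 and FR signals of 6.95, 7.42 and 7.48. Neither gene's signals overlapped between diets. The ratios were -1.26 ± 0.30 for Eif4a2 and -0.98 ± 0.46 for Eif4a1 (SD, n = 2; limma adjusted p = 4.0e-14 and 5.8e-09), and the FR signal of Eif4a2 was above background on 3 of 4 arrays. Eif4b, the other cofactor of eIF4A, was at -0.31, -0.42 and -0.27 in pools 1, 2 and 3 with overlapping signals and was not called (limma adjusted p = 0.070). The difference between Eif4h and Eif4b was not tested. Eif4a3, which belongs to the exon junction complex, was above background on 3 control arrays and no FR array.

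The cap-binding protein and the scaffold did not pass the test. Eif4e had control signals of 8.93, 7.20 and 7.57 and FR signals of 8.90, 7.08 and 7.49. The level was highest in pool 1, which holds the mice of pools 2 and 3 and was hybridised on a separate slide. That gap is therefore no measure of a difference between mice. Within each pool the diets were close. The mean ratio was -0.10 ± 0.03 (SD, n = 2, limma adjusted p = 0.68). Its 95% interval (unadjusted, from the spread shared across genes) ran from -0.40 to 0.19. Median centring, under which the median of all features was -0.18 and 35.6% of them were called lower, put Eif4e at -0.35 and called it. Eif4e2, a relative that binds the cap without recruiting ribosomes, was at 0.02, and Eif4e3 was above background on 1 of 4 arrays in each diet. The scaffold genes Eif4g1, Eif4g2 and Eif4g3 were at -0.27, -0.30 and -0.02. Eif4g2, which lacks the eIF4E site, had 4 probes with means of -0.30, -0.75, -0.20 and -0.03, of which only the second was called with every probe as its own feature. By that rule a second probe of Eif4g3 was also called lower, at -0.37 (limma adjusted p = 0.044).

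All 4 genes for proteins that bind and restrain eIF4E were called, 3 lower and 1 higher (24.5% and 3.76% of all features). Eif4ebp1, the best known target of mTORC1 among them, had control signals of 10.16, 10.61 and 10.36 and FR signals of 8.64, 8.93 and 8.79. The diets were separated by a wide gap in each pool. The Eif4ebp1 ratios of -1.53, -1.68 and -1.57 lay closer together than those of any other called gene with a 2-fold change, and the mean was -1.63 ± 0.08 (SD, n = 2; limma adjusted p = 8.1e-27), a 3.08-fold reduction. On single arrays it was -1.53 and -1.53 in pool 1, -1.78 and -1.58 in pool 2, and -1.77 and -1.37 in pool 3.

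Eif4ebp2 had control signals of 8.00, 8.71 and 8.18 and FR signals of 7.24, 7.55 and 7.50, with no overlap. Its ratio was -0.92 ± 0.34 (SD, n = 2; limma adjusted p = 5.8e-08). Eif4ebp3 had control signals of 6.91, 7.05 and 6.91 and FR signals of 6.47, 6.58 and 6.60, of which 2 of 4 arrays were above background. Its ratio was -0.39 ± 0.11 (SD, n = 2; limma adjusted p = 0.0081), and this call was lost under 4 other settings, leaving out pool 2 among them. A second Eif4ebp3 probe was at -0.28 and, with every probe as its own feature, was not called (limma adjusted p = 0.052). That probe was above background on 1 of 4 FR arrays. The order Eif4ebp1, Eif4ebp2, Eif4ebp3 held in each of the 3 pools, and its differences were not tested.

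Eif4enif1 encodes 4E-T, which carries eIF4E into the nucleus and into P-bodies. Its control signals were 7.05, 6.67 and 6.72 and its FR signals 7.42, 7.12 and 7.21, so the FR signals were higher in every pool, with a narrow gap. The ratio was 0.47 ± 0.03 (SD, n = 2; limma adjusted p = 0.0022). On single arrays Eif4enif1 was at 0.24 and 0.50 in pool 1, 0.41 and 0.48 in pool 2, and 0.30 and 0.69 in pool 3. With the scanner's own processed signals the ratio was 1.40.

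The factors that act late in initiation were not called. Eif5, which triggers GTP hydrolysis on eIF2, had ratios of 0.19, -0.33 and 0.51 in pools 1, 2 and 3, and its pools disagreed in sign. A second Eif5 probe was at 0.12 and 1.04 in pools 2 and 3 and was called higher with every probe as its own feature. Eif5b, which joins the ribosomal subunits, was the highest of the genes numbered Eif5, at -0.02, 0.00 and 0.33. Of its other probes, one was at -0.38 ± 0.23 (SD, n = 2) and was called lower as its own feature, and one was at 0.11. Eif5a, the hypusine-bearing factor that also serves elongation, was at -0.07, and its relative Eif5a2 was the lowest, at -0.17, -0.23 and -0.44. Eif6, which keeps the large subunit free until it is needed, was at 0.09, 0.01 and 0.12, while its dimmer probe was at -0.90 and -0.67 in pools 2 and 3 and above background on 2 of 4 FR arrays. As its own feature this Eif6 probe was called lower (limma adjusted p = 3.3e-07).

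**Figure D3:**
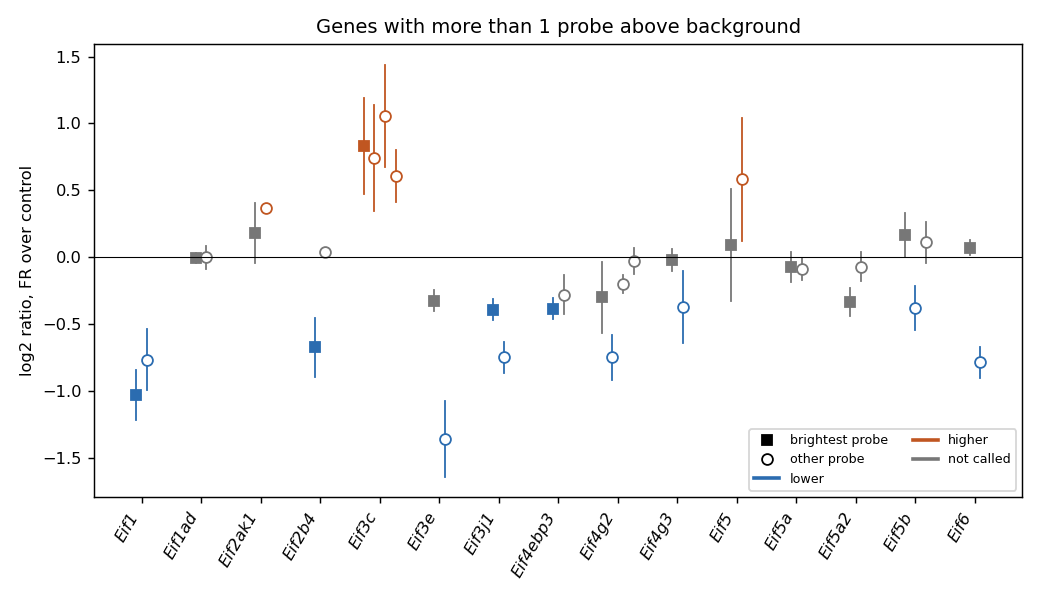
Log2 ratio of FR over control for each probe of the 15 genes with more than 1 probe above background, as the mean of pools 2 and 3 with a line joining the pools. Squares are the brightest probe, which stands for the gene, and colour gives the call with every probe as its own feature. The 4 Eif3c probes lie together above 0, whereas the probes of Eif3e, Eif6, Eif5b and Eif2b4 lie apart.

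In the 15 genes with several probes above background, the sign of the mean differed between probes in Eif2b4, Eif5b and Eif6. With the scanner's processed signals, Eif2b4 was at -2.66, Eif2b2 at -1.99, Eif4ebp3 at -1.11, Eif3m at -2.01 and Eif4a2 at -2.14, each called lower (26.6% of all features) and each moved by over 1.5 times. The FR signal of 8 tested genes, 5 of them called lower, was above background on fewer than 4 arrays. Eif4h was at -2.60 and Eif4ebp1 at -2.04 by that measure.

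**Figure D4:**
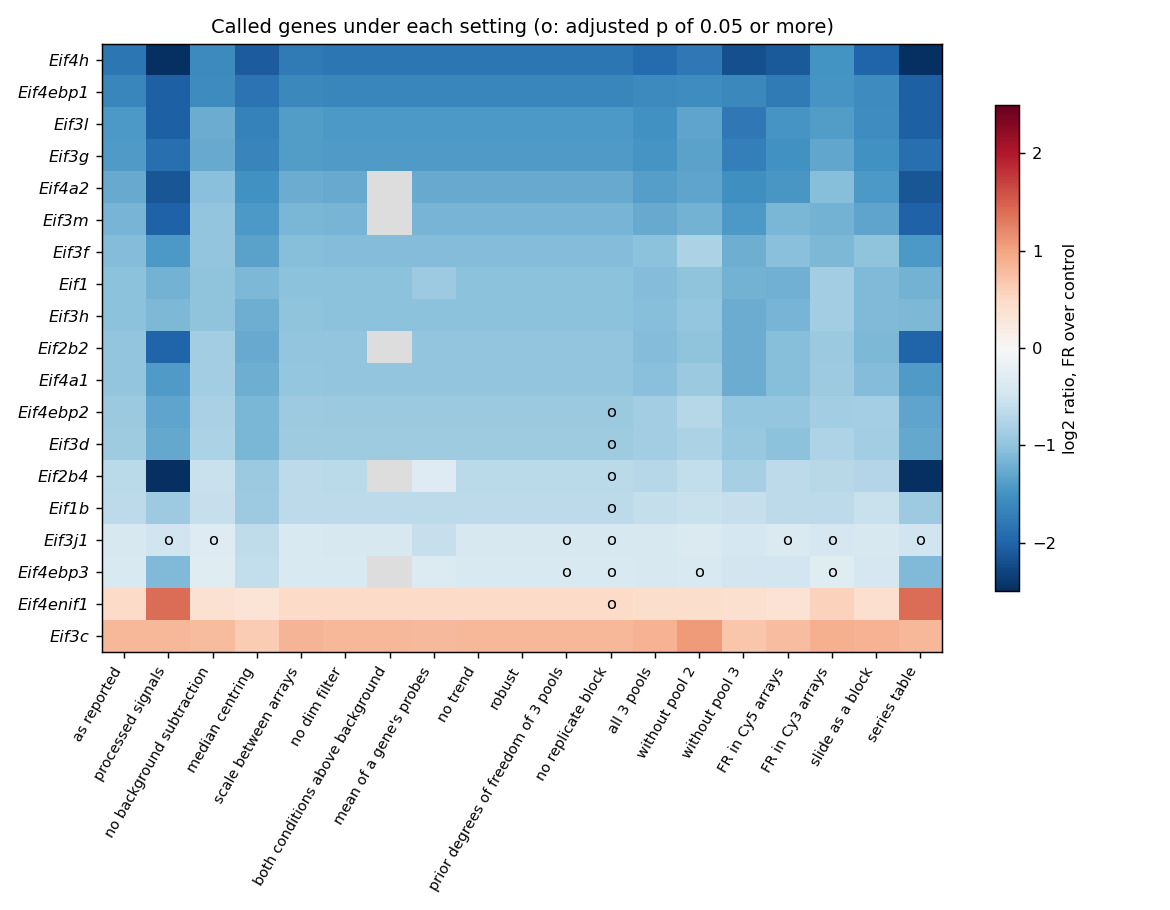
Log2 ratio of FR over control (colour) for the 19 called genes (rows) under the reported setting and 18 others (columns), with an o where the adjusted p was 0.05 or more and grey where the gene was not tested. Eif4h to Eif4a1 at the top and Eif3c at the bottom hold no o, and most o marks stand in the column without replicate block and in the rows of Eif3j1 and Eif4ebp3.

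Other genes of translation were taken from lists by role and are given by their counts. Of 17 tested initiation cofactors without an Eif symbol, 10 fell and none rose, with a median of -0.52. Over all features 24.5% were called lower and 3.76% higher, with a median of 0.01. Among those that fell were Pabpc1, the poly(A)-binding protein that joins the tail to eIF4G, at -1.50, and Paip2, an inhibitor of Pabpc1, at -1.10. Of 12 elongation factors 3 fell, a share near the 24.5% of all features. They were Eef1g at -2.01, Eef1d at -0.91 and Eef1b2 at -0.63, all subunits of the exchange complex of eEF1A. Eef1a1, the tRNA carrier itself, was at -0.07 and Eef2, the translocase, at -0.05, and neither was called. With pool 1 in place of pool 3, 9 of the 12 elongation factors changed, when 51.3% of all features did. Pool 1 holds the mice of pool 2, so that fit, called without pool 3 hereafter, has no independent replicates. Of 6 termination and recycling factors 3 were called lower: Trmt112 at -1.20, Mrrf, a mitochondrial factor, at -0.42, and Abce1, the ribosome recycling factor, which was not well above background on any FR array and has no level there. The FR signal of Mrrf was above background on 3 of 4 arrays. With both diets required above background, 1 of the 3 was left, and 24.7% of all features were called.

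Of 24 tested genes of mTORC1 and MNK signalling, which reaches eIF4E and the 4E-BPs, 9 fell and 1 rose, with a median of -0.25. The shares over all features were 24.5% lower and 3.76% higher. The largest falls were in Mknk2, a kinase of eIF4E, at -1.15, in Rraga, a GTPase that brings mTORC1 to the lysosome, at -0.94, and in Lamtor3, a part of its anchor there, at -0.86. Rragd, another such GTPase, was the one called higher, at 0.59, and its control signal was above background on 2 of 4 arrays. The FR signal of Lamtor3 was above background on 3 of 4. Without pool 3, 19 of the 24 changed (51.3% of all features), and without the replicate block 2 did (9.57%). With both diets required above background 6 did (24.7%). Of 19 tested genes of eIF2 phosphorylation and the integrated stress response, 3 fell and 2 rose, with a median of -0.06. Atf5, a transcription factor translated when eIF2 is phosphorylated, rose by 1.50, with 1.45, 0.68 and 2.31 in pools 1, 2 and 3. Herpud1 was lower at -0.98, with FR above background on 2 of 4 arrays, and Nck2 at -0.58, while Atf4 was at -0.30 and was not called and Asns, an ATF4 target, rose by 0.41. Without pool 3, 10 of these 19 changed (51.3% of all features), and with both diets required above background 3 did (24.7%).

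Of 12 tested aminoacyl-tRNA synthetases, 2 fell and 1 rose, with a median of -0.06. Qars was at -1.02, Iars at -0.35 and Nars at 0.70. The FR signal was above background on 3 of 4 arrays for Qars and on 1 for Iars. Without pool 3, 7 of the 12 changed (51.3% of all features), and with both diets required above background 1 did (24.7%). Each of these 6 lists had more genes called lower than higher, as had all features (24.5% lower and 3.76% higher).

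**Figure D5:**
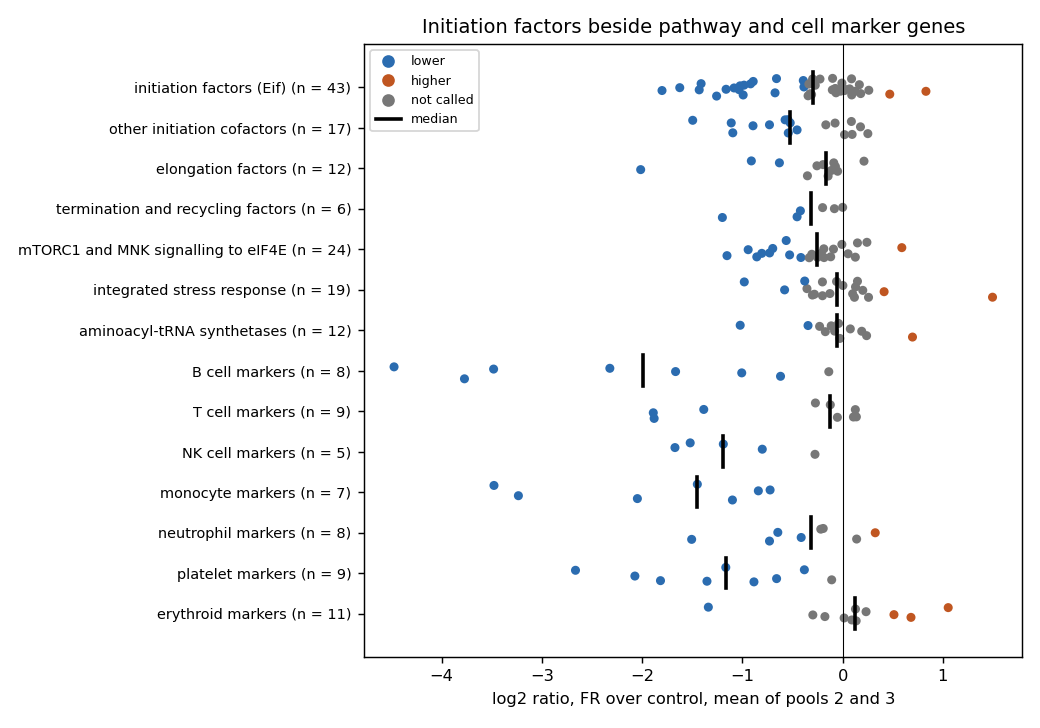
Log2 ratio of FR over control (mean of pools 2 and 3) for each tested gene of the Eif group, the pathway lists and the cell marker lists, with the median as a black bar and the call as colour. The Eif median is -0.30. The B cell, monocyte, NK cell and platelet markers lie further left, and the erythroid markers centre near 0.

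The markers of blood cells were largely measured, with 11 of 12 erythroid, 9 of 9 platelet, 8 of 9 B cell, 9 of 10 T cell, 5 of 7 NK cell, 7 of 8 monocyte and 8 of 10 neutrophil genes on the array bright enough to test. Many of them moved as well, and their part in the Eif ratios was not tested. Of all features, 24.5% were called lower and 3.76% higher. Of the tested markers, 7 of 8 for B cells fell (median -1.99), 7 of 7 for monocytes (-1.45), 4 of 5 for NK cells (-1.19), 8 of 9 for platelets (-1.17), 3 of 9 for T cells (-0.12) and 4 of 8 for neutrophils (-0.32). A further neutrophil marker, Lcn2, was called higher at 0.33, with control above background on 3 of 4 arrays, and was not called without the replicate block (limma adjusted p = 0.44). Of 11 erythroid markers, 3 rose and 1 fell (median 0.13). The summed log2 signal of the B cell markers ran from 12.91 to 13.82 in control pools and from 10.04 to 10.86 in FR pools. It ran from 14.93 to 15.51 against 12.09 to 12.36 for monocytes, from 10.11 to 10.48 against 8.63 to 9.10 for NK cells and from 16.50 to 16.51 against 15.20 to 15.27 for platelets. For T cells it ran from 12.17 to 12.19 against 11.71 to 11.85, and for neutrophils from 13.49 to 14.46 against 13.08 to 13.33. The erythroid sum ran from 19.02 to 19.26 in control and from 19.22 to 19.47 in FR, so that it was the one sum whose ranges overlapped.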

How the data were processed

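Each deposited scanner file gives a linear intensity per spot in red (Cy5) and green (Cy3), which the authors extracted with Agilent Feature Extraction (version 11.0.1.1 in the submitters' processing notes). The deposited series table holds log10 ratios of red over green. Median spot and background signals were corrected with normexp (offset 50; mean signals had been planned, and the columns used here hold medians), turned to log2 ratios, normalized by loess within arrays with control spots at weight 0, averaged per probe and turned to FR over control by the dyes in the labels. The 2 arrays of a pool were averaged. Accessions were matched to RefSeq (GRCm38.p6): 23374 of 41174 probes had a symbol. The brightest probe stood for a gene. The two-sided test used lmFit and eBayes with a trend (limma 3.58.1, R 4.3.3) on the mean ratios of pools 2 and 3 against 0, over 11499 features. The FR and control RNA of a pool share each array, which is what pairs them. Signals per channel were Aquantile-normalized and serve as levels. Every tested Eif gene is named. Values per pool are given for called, Eif2ak and Eif4ebp genes and for the highest and lowest of each factor number, values per array for the 4 largest calls in each direction, and of each list the 3 largest calls, of which 1 is not reported here. Rragd, Atf4, Asns, Eef1a1, Eef2 and Lcn2 were added after their values were seen. The genes, lists and markers were chosen with earlier results of these data known.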

Additional observations from a re-analysis of the deposited data

How the results depend on the processing

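Of the 19 called genes, 12 (11 lower and Eif3c) kept direction and call under each of the 18 alternatives in which they could be tested, and none reversed. With median centring in place of loess 29 genes changed, 27 of them lower, when 37.2% of all features changed and 35.6% were lower. The median of the Eif genes was then -0.53 and that of all features -0.18, and 95.8% of all calls were lower instead of 86.7%. Without the replicate block 12 genes changed, 11 lower and 1 higher. With FR in Cy5 arrays alone 4 were higher (8.71% of all features) and the median was -0.19, and with every probe as its own feature, an alternative chosen after seeing the data, 4 were higher. The median was -0.41 with the processed signals and with the series table. Of the pathway genes 33 changed, when 28.3% of all features did. With median centring 52 did (37.2% of all features), and with both diets required above background 21 did (24.7%). Without the replicate block 12 did (9.57%), and with slide as a block 54 did (43.4%). Leaving out pool 2 or pool 3, with pool 1 in its place, which holds the mice of the pool kept and so is no independent replicate, gave 21 to 27 changed Eif genes, 19 to 25 of them lower and 2 higher, medians of -0.29 to -0.34, and 31 to 60 pathway genes. The high end was without pool 3 in each case. Of all features, 25.5% changed without pool 2 (20.9% lower and 4.62% higher). Without pool 3, 51.3% of all features changed (36.1% lower and 15.2% higher). The share of lower calls over all features was 70.4% there, and 75.1% with both diets required above background. Of the 24 uncalled genes, 13 were called under some alternative. The cause of these shifts was not tested. The number of pools limits the precision, and the 9 dim genes could not be measured.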
